A study of Mus musculus with 9 samples.

Results

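The genes described here encode the proteins that find, license and fire DNA replication origins and that copy DNA at the fork. They were chosen by name as 49 genes of this machinery, and each was read through 1 probe set, the brightest that named no other gene. A probe set of its own was found for 48 of the 49, all of which were among the 11644 genes tested. The remaining member, Chaf1a, the large subunit of a histone chaperone that works behind the fork, was named by no probe set in the annotation used here and has no value.

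Replication is prepared in G1, when the origin recognition complex, Cdc6 and Cdt1 load the ring-shaped Mcm2 to Mcm7 helicase onto DNA. Cyclin-dependent kinase and the Dbf4-dependent kinase Cdc7 then recruit Cdc45 and the GINS complex, which turn the loaded ring into a moving helicase. In the thymus, CD4+CD8+ double-positive (DP) cells arise from a burst of division and are then mostly small and resting while they await selection, so that replication genes are known to mark the dividing cells among them.

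RNA of 9 C57Bl/6 mice, 1 array each, was measured. All mice carried the R26NC allele in both copies, the controls included. The control group was sorted DP thymocytes of 2 mice without the CD4Cre transgene (R26NC/NC CD4Cre-) aged 6 weeks. The pre-transformed group was sorted DP thymocytes of 3 CD4Cre+ mice of 6 weeks, in which Cre driven from Cd4 sequences turns on an activated form of β-catenin, the effector of canonical Wnt signalling. The tumour group was whole thymic tumours of 4 CD4Cre+ mice, with ages of 28, 26, 23 and 21 weeks for tumours 1 to 4. By the labels, sorting left over 98% DP cells, and tumours, which were not sorted, held at least 95%. Labelling started from 0.1 µg RNA with amplification for sorted cells and from 2.5 µg without it for tumours, so that transformation cannot be told apart from labelling, sorting or age. In RNA from whole samples, fewer cells of a type and less RNA per cell cannot be told apart either. With so few arrays, every value is of limited precision.

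Some features of the arrays bear on the members. The DP markers Cd4, Cd8a, Cd8b1, Cd3e, Cd3g, Rag1 and Rag2 summed to 20500 to 23336 on sorted arrays and to 8650 to 13477 on tumour arrays, with 5 of the 7 called lower and Cd4 called higher in tumours than in controls. Rag2 read 48.4 to 201.4 in tumours against 855.0 or more in sorted cells, and Cd4 1007.9 to 1725.0 against 706.6 and 738.3 in controls. Summed signals of 8 myeloid markers were 126 to 253 in sorted cells, 155 in tumour 2 and 2954 to 3268 in the other tumours, and 4 B cell markers summed to 212 to 267 in sorted cells, 9.2 in tumour 2 and 303 to 447 in the others. The B cell sum mixes opposite moves: Cd79b read 195.8 to 253.9 in sorted cells and 1.3 to 108.5 in tumours, while Ms4a1 read 1.5 to 8.9 in sorted cells and 138.9 to 269.7 in tumours other than tumour 2. The 3′ to 5′ log2 ratio of β-actin, a sign of RNA loss toward the 5′ end, averaged 0.81 over the 4 tumours (SD 0.28), above the mean of 0.26 over the 5 sorted arrays (SD 0.05), while that of Gapdh averaged −0.31 (SD 0.19) and −0.20 (SD 0.12). Pre-transformed 1 and tumour 4 read 12.6 and 11.8 for Xist and 614 and 540 for the Y-linked Eif2s3y, as male mice do, while each other array read 4086 or more for Xist. The part of these differences in the results was not tested.

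The first comparison set cells with active β-catenin, before a tumour is seen, against controls. The controls also lacked the CD4Cre transgene, so that its part cannot be told apart from that of β-catenin. Signals of most replication genes were lower in pre-transformed cells than in controls, but few passed the test. Gmnn, Rpa3 and Tipin fell, by 1.57- to 1.64-fold, and Ccne1 rose 1.78-fold. Calls rest on limma's p-values, adjusted over all genes tested by Benjamini and Hochberg's method, with a threshold of 0.05. Of all genes tested, 0.524% were called lower and 1.11% higher, against 3 (6.25%) and 1 (2.08%) of the 48 members. The other 44 members were not called, although 23 of them were lower and 1 higher at an unadjusted p under 0.05. All pre-transformed arrays lay below both control arrays for 25 members (52.1%), as they did for 15.6% of all genes. The median log2 change was −0.41 over the members and 0.02 over all genes, with 40 members below 0. Without control 2, the control with the higher signals, the members' median was −0.227.

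The comparison of tumours with pre-transformed cells asked what accompanies transformation, and here nearly the whole machinery was higher. Of the 48 members, 45 rose in tumours (93.8%, against 23.9% of all genes), from 1.5-fold (Rfc1) to 5.95-fold (Cdc6), and 0 fell by limma's adjusted or unadjusted p, against 31.0% of all genes. Orc4, Ccne1 and Pola2 were not called. All tumours lay above all pre-transformed arrays for 43 members, as they did for 24.8% of all genes. The median log2 change was 1.51 over the members and −0.12 over all genes. Each tumour taken alone lay above every pre-transformed array for 44 to 47 members, as it did for 38.9 to 40.8% of all genes.

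Tumours were also set against controls, with the same 4 tumour arrays. There 40 members rose (83.3%, against 20.5% of all genes) and 0 fell by adjusted or unadjusted p, while 25.2% of all genes were lower. The median was 1.02 over the members and −0.08 over all genes, and all tumours lay above both controls for 42 members and for 27.4% of all genes. The 8 members not called were Orc4, Ccne2, Gins3, Pola2, Rfc1, Rpa2, Rpa3 and Uhrf1. Without control 1 the test called 22 members higher (45.8%) and 10.1% of all genes. Each of the 3 comparisons shares arrays with the others, so that none is independent support for another.

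**Figure D1:**
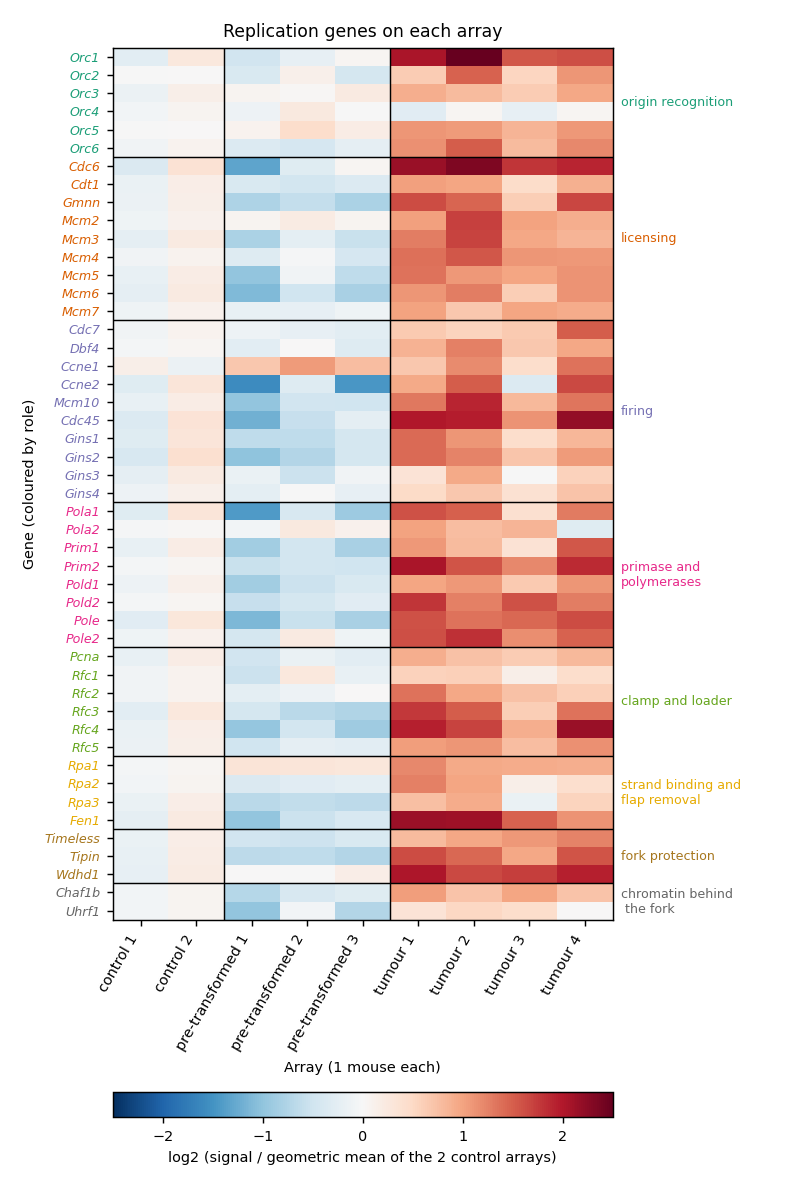
Each row is 1 of the 48 measured replication genes, grouped by role, and each column 1 array. Colour gives the log2 ratio of the signal to the geometric mean of the 2 controls: pre-transformed columns are mostly pale blue, tumour columns are red except for Orc4 and a few single cells, and Ccne1 is already red before transformation.

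Control 1 lay below control 2 for 47 of 48 members, the exception being Ccne1, while 52.8% of all genes were lower in control 1. The sum of 4 markers of dividing cells (Mki67, Top2a, Birc5, Cdk1) was 3668 in control 1 and 4741 in control 2. It was 2258 to 2728 in pre-transformed cells and 7876 to 11026 in tumours, the lowest tumour being tumour 3. The same array was the lowest tumour for 32 members and the highest for 0. Pre-transformed 1 had the lowest marker sum of its group and was lowest for 32 members, and pre-transformed 2 had the highest sum and was highest for 27. In each group the array with the lowest marker sum was thus the one that was lowest for most members. At the other end the tumours did not match: tumour 2 had the highest sum and was highest for 16 members, and tumour 1 for 19. The part of dividing cells in the members' changes was not tested. The median SD of the members on the log2 scale was 0.21 in controls, 0.19 in pre-transformed cells and 0.30 in tumours, where that of all genes was 0.12, 0.19 and 0.42.

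**Figure D2:**
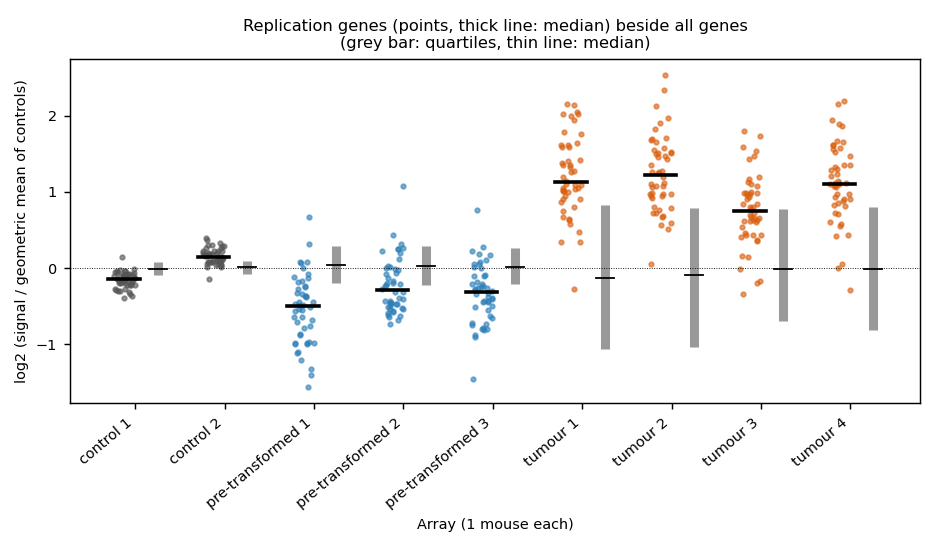
Points are the 48 replication genes on each array as log2 of the signal over the geometric mean of controls, with their median as a thick line, and grey bars give the quartiles of all 11644 genes. The members' median ran from −0.50 to −0.29 on pre-transformed arrays and from 0.75 to 1.22 on tumour arrays, with all-gene medians between −0.13 and 0.04.

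The origin recognition complex marks origins on chromatin. Its 6 subunits moved unequally: none was called before transformation, and 5 of 6 rose in tumours against pre-transformed cells. Orc1, the ATPase subunit whose level is known to cycle, read 23.2 and 33.7 in controls, 20.1, 24.4 and 29.1 in pre-transformed cells and 114.3, 163.0, 81.5 and 85.6 in tumours 1 to 4. Both sorted groups were dim, that is, under the 65th percentile of their arrays, 40.8 and 43.7 as group means, so that the tumour signal was at least 2.44-fold higher than in pre-transformed cells (adjusted p = 0.000269) and at least 2.62-fold higher than in controls (adjusted p = 0.00163). Orc6, the smallest subunit, read 240.8 and 275.2 in controls, 202.4, 191.3 and 221.8 before transformation, and 570.4, 732.9, 447.4 and 595.5 in tumours, with no overlap between any groups. Its rise over pre-transformed cells was 1.5 on the log2 scale (SE 0.18, adjusted p = 0.000104). Orc2, Orc3 and Orc5 rose by 0.72 to 1.17.

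Orc4, another ATPase-fold subunit of the same complex, did not follow. Its probe set read 340.6 and 372.9 in controls, 324.2, 424.4 and 355.9 in pre-transformed cells and 293.8, 370.1, 310.4 and 368.9 in tumours, and the groups overlapped. The log2 change was −0.13 in tumours against pre-transformed cells (95% interval −0.48 to 0.22, adjusted p = 0.496), and the upper bound lay below the rise of each other origin subunit. Of its 3 other probe sets, all dimmer, one gave −0.33 and the others 0.35 and 0.81.

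Licensing loads the helicase and forbids a second loading in the same cycle. All 9 members of this group rose in tumours against both sorted groups, with a median log2 change of 1.70 over pre-transformed cells and 1.16 over controls. Cdc6, which loads the helicase together with Cdt1, gave the largest change of all members. It read 131.6 and 218.3 in controls, 67.7, 136.8 and 175.5 in pre-transformed cells and 752.4, 856.2, 588.5 and 631.0 in tumours. Sorted arrays spread widely and overlapped, while the lowest tumour, at 588.5, lay above all of them. The log2 change was 2.57 (SE 0.32, adjusted p = 0.000129) against pre-transformed cells and −0.53 (95% interval −1.39 to 0.34, adjusted p = 0.513) between pre-transformed cells and controls.

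Gmnn encodes geminin, which binds Cdt1 and blocks relicensing until the cell has divided. It read 562.9 and 691.7 in controls, 367.0, 415.6 and 362.1 in pre-transformed cells and 1942.4, 1716.3, 954.4 and 1978.3 in tumours, and no group overlapped another. It fell by 0.71 on the log2 scale before transformation (SE 0.13, adjusted p = 0.0376) and rose by 2.06 from there to tumours (SE 0.24, adjusted p = 9.54e-05). Cdt1 itself read 1157.8 and 1470.6 in controls, 949.9 to 1027.2 in pre-transformed cells and 1796.7 to 2664.3 in tumours, a rise of 1.23 (SE 0.16, adjusted p = 0.000154). The inhibitor and its target were thus both higher in tumours.

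Mcm2 to Mcm7 form the helicase ring with 1 copy of each. All 6 rose in tumours, by 1.05 (Mcm2) to 1.83 (Mcm6) over pre-transformed cells and by 0.90 (Mcm7) to 1.28 (Mcm4) over controls. Before transformation none was called, with changes from −0.80 (Mcm6, adjusted p = 0.0811) to 0.12 (Mcm2). Mcm6 read 1100.9 and 1492.7 in controls, 597.4, 905.7 and 732.8 in pre-transformed cells and 2736.5, 3101.1, 1950.6 and 2773.9 in tumours, with no overlap. Mcm2, by contrast, stayed between 420.2 and 518.2 on all sorted arrays.

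**Figure D3:**
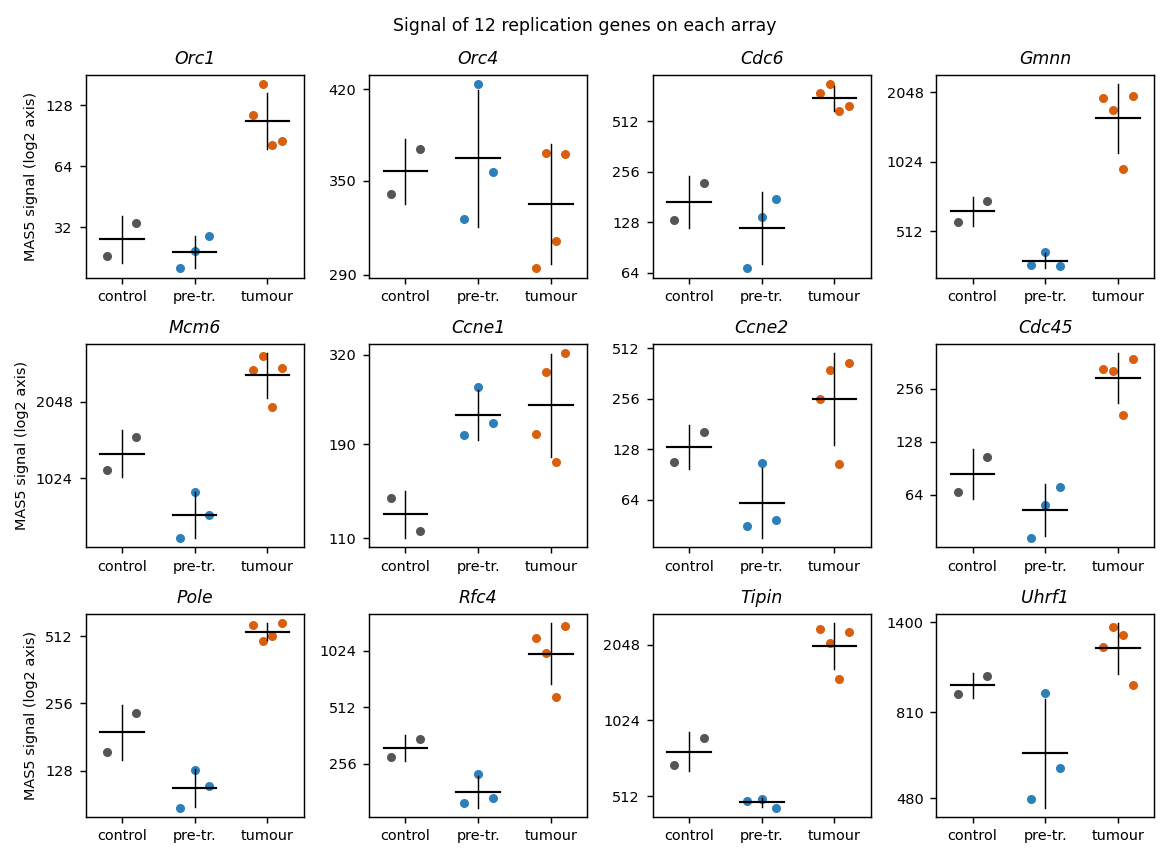
Signals of 12 replication genes on each array, on a log2 axis that differs between panels. Points are arrays, horizontal lines geometric means and vertical lines 1 SD of log2 values, for 2 control, 3 pre-transformed and 4 tumour arrays. Orc4 shows overlapping groups, Ccne1 is higher in pre-transformed cells than in controls, and the other panels have their highest mean in tumours.

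Firing factors turn loaded rings into forks, and 9 of the 10 rose in tumours over pre-transformed cells, 7 of them also over controls. Cdc45, a subunit of the active helicase, read 66.1 and 105.1 in controls, 36.2, 55.6 and 70.6 in pre-transformed cells and 331.8, 326.0, 181.9 and 381.6 in tumours. Its lowest tumour lay above its highest sorted array, and the log2 change over pre-transformed cells was 2.50 (SE 0.32, adjusted p = 0.000157). A second, dimmer Cdc45 probe set gave 0.55 there, with means of 28.0 in controls and 27.9 in tumours. Mcm10, which helps to activate the helicase, rose by 2.00. All 4 GINS subunits rose over pre-transformed cells, from 0.72 (Gins4) to 1.83 (Gins2). Gins3 was near the dim range, with 48.4 to 65.3 in pre-transformed cells and 69.4 to 134.9 in tumours, and was not called against controls (0.47, 95% interval −0.20 to 1.13). The kinase Cdc7 and its activator Dbf4 rose by 1.04 and 1.14.

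The cyclins E1 and E2, which activate Cdk2 at the entry to S phase, differed from each other. Ccne1 read 139.4 and 114.8 in controls, 200.9, 266.2 and 214.9 in pre-transformed cells and 202.3, 288.9, 171.2 and 323.0 in tumours. All Cre-positive arrays lay above both controls. The rise before transformation was 0.84 (SE 0.16, adjusted p = 0.0488), and it was the sole member called higher there. From pre-transformed cells to tumours the change was 0.08 (95% interval −0.45 to 0.61, adjusted p = 0.796), and from controls to tumours 0.91 (adjusted p = 0.0201). A second, dimmer Ccne1 probe set gave 0.53, 0.17 and 0.70 in the same 3 comparisons.

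Ccne2 read 106.9 and 162.8 in controls, 44.5, 106.1 and 48.2 in pre-transformed cells and 254.3, 379.2, 104.0 and 416.0 in tumours. Tumour 3 lay within the range of pre-transformed cells, and the SD of 0.91 in tumours was the highest of any member. Ccne2 rose by 2.06 over pre-transformed cells (SE 0.48, adjusted p = 0.00503) and was not called against controls (0.95, 95% interval −0.27 to 2.17, adjusted p = 0.181). Its change before transformation, −1.11, was the largest of all members but was not called (95% interval −1.96 to −0.27, adjusted p = 0.174). Without pre-transformed 2, which read 106.1, it was −1.51 and was called (adjusted p = 0.026).

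DNA polymerase α with its primase starts each new strand, and polymerases δ and ε extend it. Of these 8 members 7 rose in tumours, with a median of 1.79 over pre-transformed cells. Pole, the catalytic subunit of the leading-strand polymerase, read 155.6 and 232.2 in controls, 87.6, 129.1 and 109.0 in pre-transformed cells and 574.1, 485.2, 511.9 and 584.8 in tumours, with close agreement among tumours and no overlap. It rose by 2.33 (SE 0.19, adjusted p = 1.93e-05). Prim2, the large primase subunit, read 198.2 and 213.2, then 139.9, 148.8 and 144.8, then 848.2, 614.0, 473.4 and 751.7 in the same order of groups, a rise of 2.18 (SE 0.20, adjusted p = 2.7e-05). Before transformation no member of the group was called, with Pola1, the catalytic subunit that extends primers, at −0.91 (95% interval −1.57 to −0.24, adjusted p = 0.16) and Prim1 at −0.71 (adjusted p = 0.0696).

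Pola2, the regulatory subunit of polymerase α, was the member of this group not called in tumours. It read 168.1 and 176.8 in controls, 163.8, 205.0 and 186.1 in pre-transformed cells and 348.1, 293.4, 308.8 and 140.7 in tumours. Tumours 1 to 3 lay above all sorted arrays and tumour 4 below them. The log2 change was 0.49 over pre-transformed cells (95% interval −0.15 to 1.12, adjusted p = 0.173) and 0.58 over controls (adjusted p = 0.165).

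The sliding clamp PCNA holds polymerases on DNA, and the Rfc1 to Rfc5 complex loads it. All 6 members rose over pre-transformed cells, and all but Rfc1 also over controls. Pcna read 3528.3 and 4608.8 in controls, 2883.0 to 3585.3 in pre-transformed cells and 6233.7 to 7536.4 in tumours, which varied less than those of any other member (SD 0.12). Rfc4 read 276.9 and 346.2 in controls, 157.6, 225.6 and 167.5 in pre-transformed cells and 1193.4, 996.6, 583.3 and 1386.3 in tumours, with no overlap, and rose by 2.45 (SE 0.28, adjusted p = 8.23e-05). Rfc3 read 120.0 and 174.3, then 106.1, 90.1 and 85.8, then 492.2, 413.8, 222.4 and 368.6, a rise of 1.94 (SE 0.27, adjusted p = 0.00024). The large subunit Rfc1, which the other clamp loaders do not use, changed least, by 0.59 over pre-transformed cells (SE 0.20, adjusted p = 0.0326). Its tumour and pre-transformed arrays overlapped, while all tumours lay above both controls. Its dimmer probe sets gave 0.58 and −0.22 over pre-transformed cells and 0.28 and −0.96 over controls.

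Replication protein A covers single-stranded DNA, and Fen1 cuts the flaps between lagging-strand fragments. The 3 subunits of replication protein A bind as a trimer, and 1 of them was called before transformation. Rpa3 fell by 0.65 (SE 0.12, adjusted p = 0.0419), with 600.0 and 755.1 in controls and 420.8, 438.8 and 425.7 in pre-transformed cells. Rpa1, the large subunit, read 2430.9 and 2625.5 in controls and 3055.8 to 3142.2 in pre-transformed cells, without overlap and not called (0.30, adjusted p = 0.161). Rpa2 read 313.4 and 348.8 in controls and 256.2 to 278.3 in pre-transformed cells, lower without overlap and not called (−0.30, adjusted p = 0.22). The difference between the subunits was not tested. In tumours Rpa3 read 1128.0, 1276.3, 597.4 and 983.5, above pre-transformed cells (1.16, SE 0.23, adjusted p = 0.0022), while tumour 3 lay below both controls and the change against controls, 0.51, was not called (adjusted p = 0.14). Rpa1 rose against both groups, by 0.70 and 1.00. Rpa2 read 367.7 to 793.2 in tumours, rose by 1.01 over pre-transformed cells and was not called against controls (0.71, adjusted p = 0.0597). A second, dimmer Rpa2 probe set gave larger changes, 2.56 over pre-transformed cells and 2.01 over controls. Fen1 read 330.9 and 449.6 in controls, 194.3, 265.2 and 291.6 in pre-transformed cells and 1698.1, 1681.2, 1068.7 and 836.8 in tumours, a rise of 2.36 (SE 0.27, adjusted p = 8.68e-05).

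Timeless and Tipin form the complex that keeps the helicase and polymerases together, and Wdhd1 links the helicase to polymerase α. All 3 rose against both sorted groups. Tipin read 680.0 and 872.3 in controls, 491.1, 498.9 and 461.2 in pre-transformed cells and 2372.6, 2082.3, 1499.2 and 2295.7 in tumours, and no group overlapped another. It fell by 0.67 before transformation (SE 0.13, adjusted p = 0.0437) and rose by 2.07 from there (SE 0.17, adjusted p = 1.96e-05). Its partner Timeless was not called before transformation (−0.46, adjusted p = 0.13). Wdhd1 read 130.6 and 171.6 in controls, 150.4, 149.1 and 168.2 in pre-transformed cells and 610.5, 471.8, 496.4 and 576.6 in tumours: both sorted groups overlapped, and the rise was 1.78 over pre-transformed cells (SE 0.16, adjusted p = 2.78e-05) and 1.84 over controls.

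Behind the fork, Chaf1b belongs to the chaperone that places histones on new DNA, and Uhrf1 guides the maintenance of DNA methylation. Chaf1b read 111.8 and 124.5 in controls, 72.2, 89.9 and 95.8 in pre-transformed cells and 244.5, 194.2, 232.9 and 194.3 in tumours, a rise of 1.33 (SE 0.18, adjusted p = 0.000203). Uhrf1 read 905.1 and 1007.6, then 479.4, 909.0 and 577.5, then 1207.0, 1360.1, 1296.3 and 958.8. It rose by 0.92 over pre-transformed cells (SE 0.21, adjusted p = 0.00485), while tumour 4 lay between the controls and the change against controls was not called (0.32, 95% interval −0.22 to 0.87, adjusted p = 0.297). A second, dimmer Uhrf1 probe set gave larger changes, 2.28 over pre-transformed cells and 1.35 over controls.

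**Figure D4:**
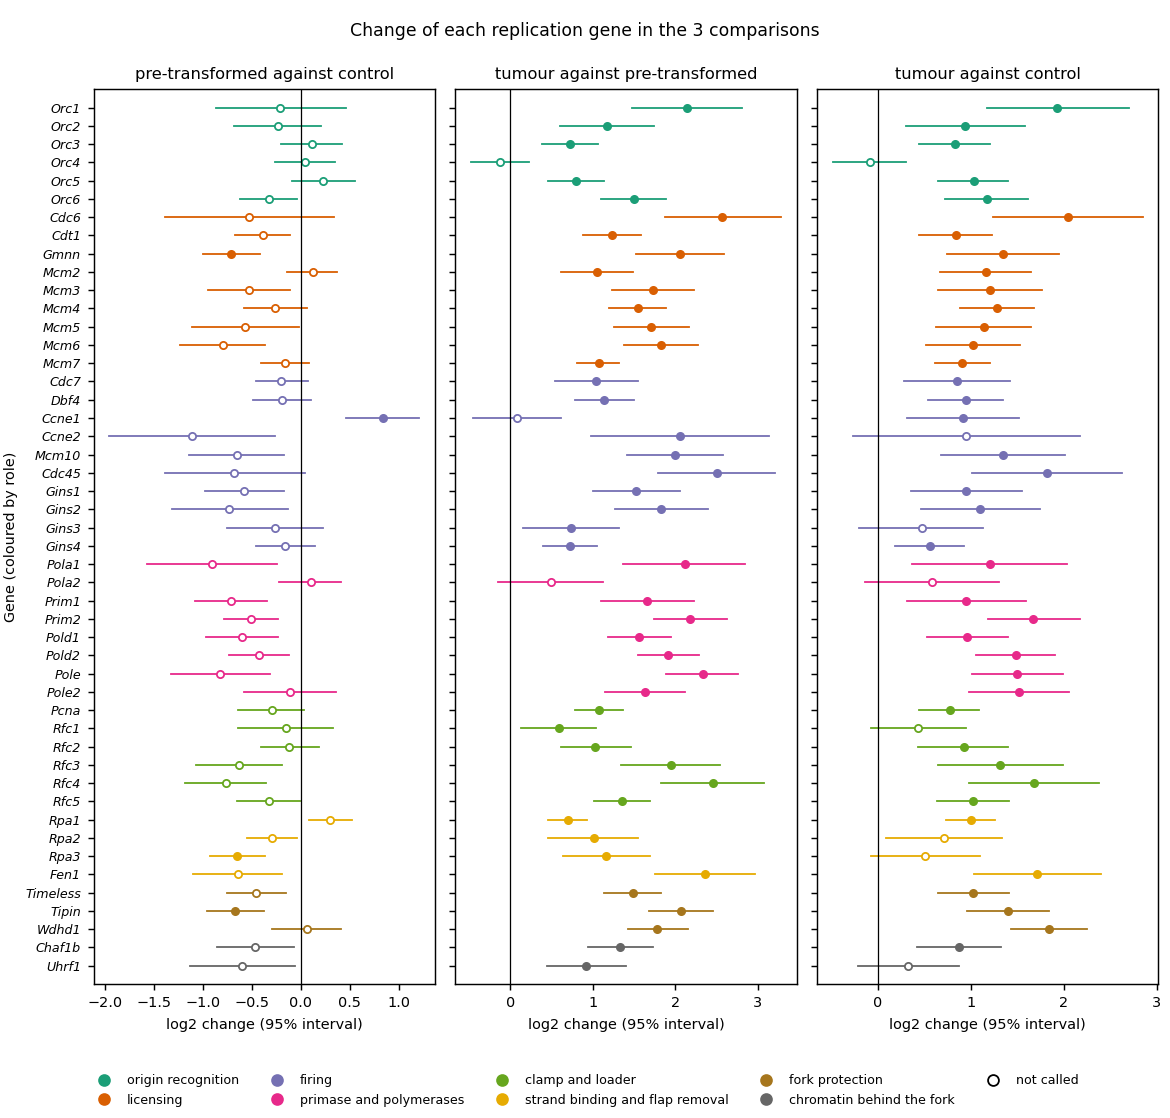
Log2 change of each of the 48 members with its 95% interval in the 3 comparisons, filled where called and open where not. Before transformation 4 points are filled, of which Ccne1 lies above 0, while 45 and 40 are filled in the comparisons of tumours with pre-transformed cells and with controls.

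The calls before transformation depended on single arrays and on the fit. Without pre-transformed 2 the test called 9 members lower (Gmnn, Mcm5, Mcm6, Ccne2, Prim1, Rfc4, Rpa3, Tipin and Uhrf1; 1.13% of all genes) and Ccne1 higher. Without pre-transformed 1 or pre-transformed 3 it called 0 members, as it did with all 9 arrays in 1 fit. The share of all genes called in these fits is not given, so that 0 calls are no result about the members. Leaving out control 1 or control 2 left 1 control array, and the members' median log2 change was then −0.521 or −0.227. The rise of the 45 members in tumours was less dependent: 43 were called whichever array was left out.

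Other genes of the pathway were counted from lists that hold 50 further genes, 49 of them tested. Before transformation 1 fell, Ccna2, the S-phase cyclin (−1.05, adjusted p = 0.0185), and 0 rose. In tumours against pre-transformed cells 33 rose and 4 fell, where 23.9% of all genes rose and 31.0% fell. Against controls 21 rose and 5 fell, where 20.5% of all genes rose and 25.2% fell. Of 11 further licensing and firing factors 8 rose over pre-transformed cells, among them Ccna2 (1.99), the firing factor Ticrr (1.56) and Mcm8, which was dim before transformation and at least 2.37-fold higher. Mcm9, which works with Mcm8 in DNA repair rather than at origins, fell by 0.94 (adjusted p = 0.0026).

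Of 15 further fork proteins 11 rose, among them DNA ligase I, Lig1, which joins lagging-strand fragments (1.76, adjusted p = 0.000134). Dscc1 (2.54, adjusted p = 6.62e-05) and Chtf18 (dim before transformation, at least 1.43-fold higher) belong to an alternative clamp loader. The third protein specific to that loader, Chtf8, fell by 1.48 (adjusted p = 0.000466). Against controls Pold4, a small subunit of polymerase δ, fell by 0.57 (adjusted p = 0.0422), while its partners Pold1 and Pold2 rose by 0.96 and 1.48. All 5 further genes of chromatin and histone supply rose, with Nasp, a histone chaperone, at 2.25 and Asf1b at 1.18. In nucleotide supply 4 of 5 rose, with the ribonucleotide reductase subunit Rrm1 at 1.75 and thymidine kinase Tk1 at 1.55.

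Many replication genes are known targets of E2F factors, which pocket proteins of the retinoblastoma family hold in check. Of 13 genes of these families 5 rose and 2 fell over pre-transformed cells, where 23.9% of all genes rose and 31.0% fell. Those that rose were E2f1, E2f3 (1.44), E2f6 (1.28), Tfdp1 (1.48) and Rb1. E2f1, an activator, was dim before transformation and at least 3.08-fold higher in tumours (adjusted p = 0.000128). Of the pocket protein genes, Rbl2 fell by 1.69 (adjusted p = 0.000283), Rb1 rose by 0.86 (adjusted p = 0.00153) and Rbl1 was not called (0.41, adjusted p = 0.064). E2f2 fell by 0.76 (adjusted p = 0.0012).

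To show what the members share outside their signals, the letters of known motifs were sought on both strands of promoter windows from RefSeq (GRCm38.p6), 250 bases before to 50 after each annotated start. Windows were found for 39 of the 49 members, 47 in all, and not for Gins1, Ccne2, Pole, Gins2, Mcm4, Tipin, Prim2, Rfc2, Gins4 and Gmnn. Letters of E2F sites (TTTCGCGC, TTTGGCGC or TTTCCCGC, which can overlap each other on opposite strands) were in 14 of the 47 windows (29.8%), against 1.84% of all 32851 windows. The letters CCAAT were in 55.3% against 37.4%, the E-box CACGTG in 12.8% against 7.15%, and TTTGAA, the core of the cell cycle homology region, in 17.0% against 17.9%. A match is a description of the letters and no evidence of binding.

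The 14 members with E2F letters were Cdc6, Cdt1, Gins3, Mcm3, Mcm5, Mcm6, Mcm7, Orc1, Orc3, Pola1, Pold1, Pole2, Rfc3 and Uhrf1. All 14 rose over pre-transformed cells, with a median log2 change of 1.66, as did 21 of the 24 tested members whose windows lack them, with a median of 1.16. Before transformation 0 of the 14 were called, with a median of −0.53, against −0.30 for the other 24. Orc4, Ccne1 and Pola2 are among those whose windows lack these letters, and so are Cdc45 (2.50), Rfc4 (2.45) and Fen1 (2.36). Members without a window are in neither set. A link between the letters and the changes was not tested. The stretches below are the 160 bases upstream of the start for 6 of the 14 members with E2F letters. They are printed 5′ to 3′ on the strand of the gene, with the E2F letters in capitals on whichever strand they were found.
Orc1, chr4:108579294-108579453, plus strand: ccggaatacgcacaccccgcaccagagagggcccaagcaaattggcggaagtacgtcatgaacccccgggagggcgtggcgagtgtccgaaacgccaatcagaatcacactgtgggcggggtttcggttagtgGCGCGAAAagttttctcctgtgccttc
Cdc6, chr11:98907991-98908150, plus strand: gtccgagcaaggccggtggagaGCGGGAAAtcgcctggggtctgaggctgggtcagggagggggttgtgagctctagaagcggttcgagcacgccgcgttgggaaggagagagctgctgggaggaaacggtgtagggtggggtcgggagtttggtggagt
Mcm5, chr8:75109349-75109508, plus strand: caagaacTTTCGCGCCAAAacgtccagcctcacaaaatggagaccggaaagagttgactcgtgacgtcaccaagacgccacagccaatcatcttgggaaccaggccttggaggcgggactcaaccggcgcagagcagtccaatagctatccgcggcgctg
Mcm6, chr1:128359706-128359865, minus strand: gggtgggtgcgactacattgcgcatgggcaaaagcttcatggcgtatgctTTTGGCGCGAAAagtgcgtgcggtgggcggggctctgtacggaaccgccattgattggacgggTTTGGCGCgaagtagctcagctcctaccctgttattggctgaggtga
Pola1, chrX:93632156-93632315, minus strand: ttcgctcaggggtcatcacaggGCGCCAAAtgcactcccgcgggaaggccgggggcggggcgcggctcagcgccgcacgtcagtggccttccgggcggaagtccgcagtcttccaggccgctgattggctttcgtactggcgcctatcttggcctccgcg
Rfc3, chr5:151651209-151651368, minus strand: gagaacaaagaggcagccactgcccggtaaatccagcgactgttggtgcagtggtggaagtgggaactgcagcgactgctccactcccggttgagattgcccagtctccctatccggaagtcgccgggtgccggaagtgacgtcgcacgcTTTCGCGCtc
In Mcm6 a pair of matches on opposite strands overlapped, at −110 to −103 and −106 to −99 from the start, with one more at −47 to −40. Mcm5 held such an overlapping pair at −153 to −146 and −149 to −142. In Rfc3 a match lay at −10 to −3 and another, past the printed stretch, at 1 to 8. The single matches lay at −27 to −20 in Orc1 and at −138 to −131 in both Cdc6 and Pola1.

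**Figure D5:**
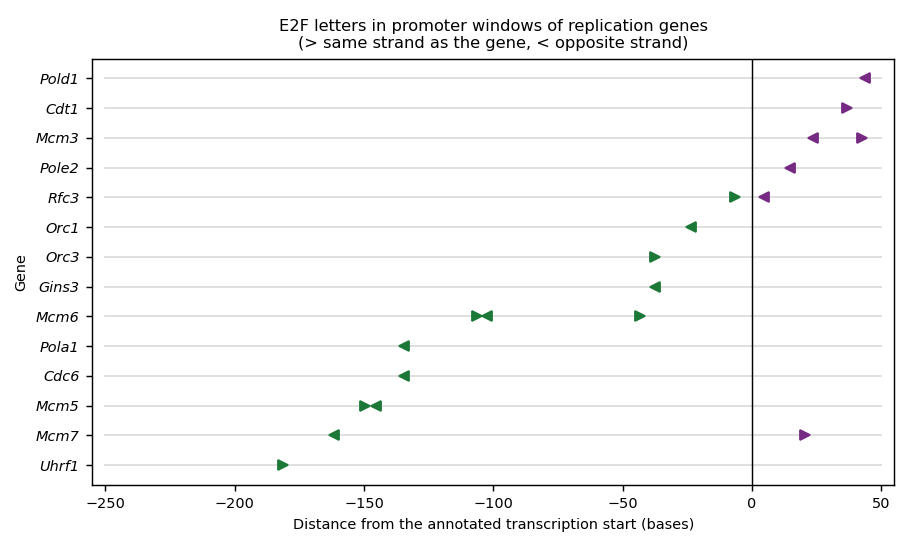
Positions of E2F letters in the promoter windows of the 14 replication genes that hold them, as distance from the annotated start in bases, with arrows for the strand relative to the gene. Matches upstream of the start are green and those past it purple, and Mcm5 and Mcm6 hold overlapping pairs on opposite strands.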

How the data were processed

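Total RNA of 9 mice was hybridised to 1 Affymetrix Mouse Genome 430 2.0 array each. The authors deposited linear signal intensity for each probe set, made with MAS5 per the submitters' processing notes, which name no version. By its values, every array was scaled to a trimmed mean of about 100 (lowest and highest 2% left out). Signals were taken to log2 (values of 0 set to 0.1) with no further normalization.

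Probe sets at or above their array's median on at least 2 arrays were kept, and each gene took its brightest probe set naming 1 gene, which left 11644 genes. Tests used limma 3.58.1 in R 4.3.3 (lmFit and eBayes, with trend): sorted arrays alone for pre-transformed against control, all 9 arrays for both tumour comparisons. Calls needed a Benjamini-Hochberg adjusted p below 0.05. Group signals are geometric means, SD values are on the log2 scale, and changes are log2 differences. Where 1 group was dim, a fold is given as at least the ratio to that group's geometric mean of 65th percentiles.

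The members and lists were chosen with earlier results of these data known. Values were given for members called before transformation and for the 2 largest tumour changes of each role. They were also given for members not called between tumours and pre-transformed cells. Some other genes were added after their values were seen. Among them were Cdt1, Mcm2, Mcm6, Mcm10, Gins3, Pola1, Prim1, Pcna, Rfc1, Rpa1, Rpa2, Timeless, Lig1, Ticrr, E2f3, E2f6, Tfdp1, Rb1 and Rbl1. Scripts were tested on simulated data. Alternatives were other filters, scalings, offsets, probe set choices and variance models, a replicate block and each array left out. Figures used matplotlib 3.10.9.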

Additional observations from a re-analysis of the deposited data

Results flagged for a closer look

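In 4 of the 48 members 1 tumour lay far from the other 3, by Dixon's test. Chance gives such a flag in about 1 in 20 groups, and the flags fell on 4 different tumours. Orc5 read 326.1 in tumour 3, below 379.0 to 390.2 in the others. Mcm2 read 1484.9 in tumour 2, above 846.6 to 925.3 in the others. Cdc7 read 884.4 in tumour 4, above 454.7 to 486.2. Rpa1 read 5779.9 in tumour 1, above 4757.2 to 4864.8. All 4 genes were called higher in tumours than in both sorted groups, and in each of them every tumour lay above every sorted array.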

How the results depend on the processing

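The count of members called lower before transformation, 3, became 0 with no filter, without the trend, with all 9 arrays in the fit and with a common floor of 40, and ran from 0 to 9 with arrays left out. The count called higher there, 1, became 0 with no filter, no trend, quantile normalization, either centring, an offset of 16, averaged probe sets, probe sets that carry no suffix, other arrays in the fit, the floor and the replicate block, and ran from 0 to 1 with arrays left out. Against pre-transformed cells 38 to 45 members were called higher in tumours over all alternatives, 36 of the 45 in every one of them. For most alternatives the share of all genes called is not given here. Against controls the count of 40 became 17 with centring on the median of all probe sets, which moved the median of all genes from −0.08 to −0.465, and ran from 22 to 43 with arrays left out. With centring on the median of all probe sets, 35.4% of the members were called higher than in controls, against 10.8% of all genes. Without that centring 20.5% of all genes were called. Of the 40 calls against controls 14 held in every alternative and 26 were lost in some. Centring on the median of the genes tested gave 42. No called member changed direction in any alternative. The cause of these changes was not tested. The floor of 40 and the centring on genes tested were chosen after seeing the data.

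Replicate numbers name different mice, and deviations of arrays with the same number correlated at −0.024 to 0.085, so that the numbers gave no pairing. With the replicate block, 2 members were lower before transformation, Fen1 and Mcm6, neither among the 3 reported (Gmnn, Rpa3 and Tipin had adjusted p of 0.0511, 0.0651 and 0.073), 0 were higher, 45 were higher in tumours than in pre-transformed cells and 43 than in controls. Of the 33 members with more than 1 probe set kept, all probe sets had the same direction in 26, 28 and 27 in the 3 comparisons. Signals near background limit what dim members such as Orc1 can show.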
